A study of Rattus norvegicus with 6 samples.

Results

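The Cyp4a and Cyp4f genes of rat liver encode cytochrome P450 enzymes that oxidise fatty acids at the far end of their chain. Their signals were compared between rats fed epsilon-momfluorothrin, a pyrethroid insecticide, and rats fed a control diet. Of 31099 probe sets on the array, 10 carried a symbol starting with Cyp4a or Cyp4f in the platform annotation, 5 in each subfamily, and each was treated on its own. They named 9 of the 14863 genes that the annotation names. Cyp4a1, Cyp4a3, Cyp4f1, Cyp4f4, Cyp4f5, Cyp4f6 and Cyp4f17 had a probe set each, Cyp4a8 had a pair, and Cyp4a2 was named only by a probe set that also named Cyp4a3. Within the family, probe sets were taken by name, whatever their values. The family itself was chosen with earlier results of these data known.

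The momfluorothrin group was 3 male rats of the strain BrlHan:WIST@Jcl(GALAS), fed a powdered diet with epsilon-momfluorothrin for 2 weeks. The sample titles give the dose as 3000 ppm and the sample characteristics as 5000 ppm, so it is not settled here. The control group was 3 male rats of the same strain, fed the same kind of diet with 0 ppm for 2 weeks. All rats were 7 weeks old, and the RNA of each liver was hybridised to 1 Affymetrix array of 1 colour.

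CYP4 enzymes place a hydroxyl group on the terminal, or omega, carbon of a fatty acid. The product is oxidised further to a dicarboxylic acid, which is shortened in peroxisomes. In rat liver Cyp4a1 and Cyp4a3 are textbook targets of PPAR-alpha, the nuclear receptor for fatty acids and for fibrate drugs. CYP4A enzymes also turn arachidonic acid into 20-hydroxyeicosatetraenoic acid, and CYP4F enzymes are known for inactivating leukotriene B4 by omega-hydroxylation.

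In the rat gene table of assembly GRCr8, which served for names and neighbours only, the Cyp4a genes lie on chromosome 5. Cyp4a3, Cyp4a1 and the related Cyp4b1 follow each other there with no other gene between them. The table lists 5 protein-coding Cyp4a genes and 3 Cyp4a pseudogenes, and 4 of the 5 were named by a probe set. Of 9 protein-coding Cyp4f genes, 5 were named by a probe set, all on chromosome 7. There Cyp4f17 is next to Cyp4f5, and Cyp4f1 next to Cyp4f6. Cyp4a2l1, Cyp4f18, Cyp4f37, Cyp4f39 and Cyp4f40 were not analysed here.

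Promoter sequences, shown for how alike the Cyp4a genes are, were matched for 6 of the 9 genes, Cyp4a2, Cyp4a3, Cyp4a8, Cyp4f1, Cyp4f5 and Cyp4f6. Each runs from 250 bases before to 50 after the start of the gene (RefSeq, GRCr8), 5′ to 3′ on the strand of the gene. Capitals mark the half-site AGGTCA or its reverse complement TGACCT, the 6 letters that receptors such as PPAR-alpha and its partner RXR bind in pairs. The 3 Cyp4a promoters were at chr5:134170859-134171158 (minus strand) for Cyp4a2, chr5:134352187-134352486 (minus strand) for Cyp4a3 and chr5:133970177-133970476 (minus strand) for Cyp4a8.
Cyp4a2: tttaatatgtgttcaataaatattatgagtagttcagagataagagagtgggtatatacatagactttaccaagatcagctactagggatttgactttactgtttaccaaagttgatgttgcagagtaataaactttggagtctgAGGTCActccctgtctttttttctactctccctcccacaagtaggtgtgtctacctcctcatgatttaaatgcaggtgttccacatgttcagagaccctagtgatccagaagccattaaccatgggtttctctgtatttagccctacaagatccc
Cyp4a3: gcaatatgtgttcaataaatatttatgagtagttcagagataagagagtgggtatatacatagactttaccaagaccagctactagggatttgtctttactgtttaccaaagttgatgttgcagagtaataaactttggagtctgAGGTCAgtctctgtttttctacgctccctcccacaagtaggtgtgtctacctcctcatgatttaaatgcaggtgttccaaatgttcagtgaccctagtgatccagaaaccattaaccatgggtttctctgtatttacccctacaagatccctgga
Cyp4a8: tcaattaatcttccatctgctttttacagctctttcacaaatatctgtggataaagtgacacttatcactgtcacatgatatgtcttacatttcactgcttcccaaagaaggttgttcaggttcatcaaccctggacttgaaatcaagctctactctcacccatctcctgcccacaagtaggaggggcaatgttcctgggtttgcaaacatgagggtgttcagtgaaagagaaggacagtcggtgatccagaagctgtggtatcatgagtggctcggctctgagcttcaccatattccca

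The promoters of Cyp4a2 and Cyp4a3 were identical at 284 of 298 aligned positions (95.3%), and the longest unbroken run they share is 57 bases. Cyp4a8 aligned with Cyp4a2 over 242 positions with 58.3% identity, and their longest shared run is 13 bases. Cyp4a2 and Cyp4a3 each held 1 half-site, at base 146 of the window, and the other 4 promoters held none. Of all 33469 promoters in the table, 16.2% held at least 1 half-site on either strand. The same half-site repeated after 1 spacer base (AGGTCANAGGTCA, N being any base, either strand) was in none of the 6 member promoters and in 0.0538% of all promoters. The promoter of Cyp4a2l1 shares an unbroken run of 264 bases with that of Cyp4a2, and it has no probe set under its own name.

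Array signals are the deposited MAS5 values, a linear brightness per probe set scaled to the same trimmed mean of about 100 on each array. Testing was limited to the 15778 probe sets that 3 or more of the 6 arrays showed above their own median signal, called kept below. Array medians were 25.9, 26.5 and 23.1 in momfluorothrin livers and 27.0, 28.5 and 29.4 in control livers (exact permutation p = 0.1, 2-sided, the smallest that 3 against 3 allows). Log2 signals of the kept probe sets correlated across probe sets at 0.972 to 0.974 between momfluorothrin arrays, 0.964 to 0.970 between control arrays and 0.958 to 0.971 between the groups. The labelled tissue was borne out by hepatocyte markers such as albumin and transthyretin, all 9 measured of which were kept. Their summed signal was 57826 to 64253 in momfluorothrin livers and 62940 to 70196 in control livers, and none of the 9 passed the test. The summed signal of pericentral markers was 27932 to 30520 against 30834 to 33242, and that of periportal markers 33214 to 34572 against 35954 to 39492. Both sums were lower on each momfluorothrin array than on any control array, with no marker past the test. Such sums follow their brightest genes. Taken singly, the groups did not overlap in 3 of 9 tested pericentral and 2 of 9 tested periportal markers, against 18.3% of all tested genes. Of these markers, 2 pericentral and 1 periportal had the higher mean log2 signal in momfluorothrin livers. Summed markers of macrophages, endothelial cells, stellate cells, bile duct cells, white blood cells, red blood cells, and pancreas and fat overlapped between the groups, and no tested gene of these lists passed. Each of the last 4 lists had only 2 genes bright enough to be tested, of 6, 10, 4 and 6 on the array. The part of any of these in the values below was not tested, and in a piece of liver fewer cells of a type and less RNA per cell cannot be told apart.

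No Cyp4a or Cyp4f probe set passed the test for a difference between momfluorothrin and control livers. Of the 10, 9 were kept and tested in the limma fit over all kept probe sets (log2 signals, Benjamini-Hochberg adjustment, 2-sided, threshold 0.05), and 0 of the 9 passed, against 0.171% of all kept probe sets. At an unadjusted p under 0.05 the count among the 9 was also 0, against 11.6% of all kept probe sets. That count was 3 without control replicate 2, 2 without control replicate 3, 1 of 8 without momfluorothrin replicate 2 and 2 with median centring, none of them past the adjusted threshold. The groups overlapped for each of the 10, and they did not overlap for 17.8% of all kept probe sets. With only 9 or 10 probe sets, a count of 0 lies near each of these shares over all kept probe sets. Cyp4f5 was among the 9 only because its momfluorothrin arrays exceeded the array medians, and Cyp4f17 was not kept.

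**Figure D1:**
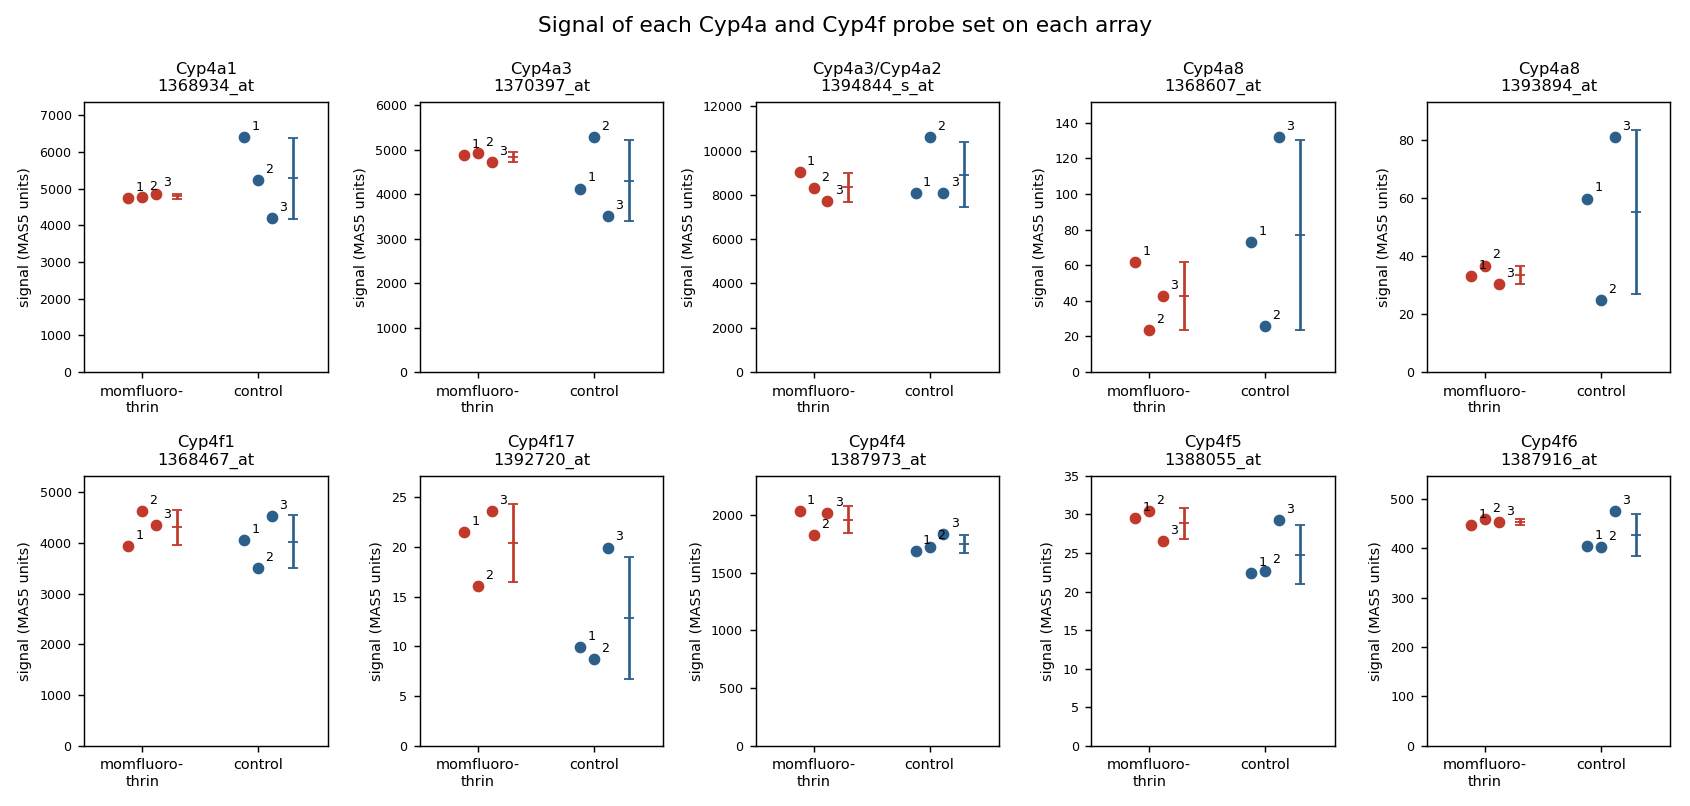
Signal in MAS5 units (linear axes from 0) of each of the 10 probe sets on each array, momfluorothrin in red on the left and control in blue on the right of each panel, with replicate numbers beside the points and the mean ± SD over 3 arrays as a bar. The groups overlap in every panel, and the control arrays of Cyp4a1 (4202 to 6409.9) spread wider than its momfluorothrin arrays (4739.8 to 4866).

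Cyp4a1, the lauric acid omega-hydroxylase that fibrates induce in rat liver, had signals of 4739.8, 4771 and 4866 in momfluorothrin replicates 1 to 3, against 6409.9, 5243 and 4202 in control replicates 1 to 3. All 3 momfluorothrin livers lay inside the control range. The log2 difference was -0.12 ± 0.13 (SE, n = 3 each, limma adjusted p = 0.758), with a 95% interval of -0.42 to 0.18, which is 0.747-fold to 1.13-fold. A doubling or a halving of the signal lies outside this interval. How closely a signal this bright follows the amount of transcript was not tested.

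Cyp4a3, another omega-hydroxylase of the fibrate response, had 4872, 4914 and 4714 in momfluorothrin livers and 4124, 5281 and 3509.7 in control livers. Control replicate 2 was the highest of the 6 arrays and control replicate 3 the lowest. The log2 difference was 0.19 ± 0.13 (SE, n = 3 each, limma adjusted p = 0.613), with a 95% interval of -0.11 to 0.48, or 0.927-fold to 1.40-fold. Without control replicate 3 the difference was 0.050, and without control replicate 2 it was 0.35 (limma adjusted p of 0.304 to 0.899 over all alternatives).

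The probe set that names both Cyp4a3 and Cyp4a2, an arachidonic acid omega-hydroxylase, cannot separate them. Whether it also detects Cyp4a2l1 was not tested. Its signals were 9037, 8291 and 7712 in momfluorothrin livers and 8065, 10613 and 8065.5 in control livers. As for the Cyp4a3 probe set, control replicate 2 was the highest, but the momfluorothrin mean lay below the control mean, at 8347 ± 664 against 8914 ± 1471 (SD, n = 3 each). The log2 difference was -0.09 ± 0.11 (SE, limma adjusted p = 0.806), with a 95% interval of -0.35 to 0.17, or 0.787-fold to 1.13-fold. The Cyp4a1 difference turned to 0.053 with median centring of the arrays and to 0.030 without control replicate 1, and stood at -0.27 without control replicate 3. That of the shared probe set turned to 0.046 without control replicate 2, 0.053 after quantile normalization and 0.088 after centring on medians, so no direction is given for either.

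Cyp4a8, a member studied mainly in rat kidney and prostate, was dimmer and far more variable. Its first probe set (1368607_at) had 61.9, 23.3 and 42.6 in momfluorothrin livers, against 72.9, 25.8 and 131.9 in control livers. The second (1393894_at) had 33.1, 36.8 and 30.4 in momfluorothrin livers and 59.8, 24.8 and 81.1 in control livers. Both probe sets ordered the control livers alike, with replicate 3 highest and replicate 2 lowest, and they ordered the momfluorothrin livers differently. On control replicate 2 both lay under the array median of 28.5.

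The log2 difference was -0.67 ± 0.56 for the first probe set and -0.57 ± 0.39 for the second (SE, n = 3 each, limma adjusted p = 0.675 and 0.605). The 95% intervals ran from 0.261-fold to 1.51-fold and from 0.367-fold to 1.24-fold, so a halving could not be told from no change in either. The values rested on single livers. For the first probe set the log2 difference was -0.29 without momfluorothrin replicate 2 and -0.99 without momfluorothrin replicate 1. Without control replicate 3 the log2 differences of the first and second probe set were -0.13 and -0.21, and without control replicate 2 they were -1.31 and -1.06, still short of the threshold (limma adjusted p = 0.391 and 0.189, which were the lowest over the alternatives, with 0.949 and 0.874 the highest). Of 5 kidney markers on the array, 4 lay at or under the median on all arrays, and the 5 summed to 70.0 to 88.4 in momfluorothrin livers and 86.8 to 107 in control livers.

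Cyp4f1, a CYP4F enzyme of rat liver, had 3936, 4633 and 4345 in momfluorothrin livers and 4057, 3496 and 4529 in control livers. The highest array was a momfluorothrin one and the lowest a control one, and the remaining values interleaved. The log2 difference was 0.10 ± 0.11 (SE, n = 3 each, limma adjusted p = 0.743), with a 95% interval of 0.909-fold to 1.27-fold. It was 0.0029 without control replicate 2, 0.046 without momfluorothrin replicate 2, 0.16 without momfluorothrin replicate 1 and 0.19 without control replicate 3.

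Cyp4f4, which hydroxylates leukotriene B4 and arachidonic acid in rats, came closest to the threshold of the 10. Its signals were 2036, 1825 and 2014 in momfluorothrin livers, against 1686, 1727 and 1835 in control livers. Momfluorothrin replicate 2 lay under control replicate 3, so the groups overlapped by this 1 pair. The means were 1959 ± 116 and 1749 ± 77.2 (SD, n = 3 each), a log2 difference of 0.16 ± 0.08 (SE, limma unadjusted p = 0.0675, adjusted p = 0.472) with a 95% interval of 0.990-fold to 1.26-fold.

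Cyp4f6, cloned with Cyp4f4 and Cyp4f5 from rat brain, had 446.7, 458 and 452 in momfluorothrin livers and 404, 402 and 476 in control livers. The momfluorothrin livers lay between the lower pair of control livers and control replicate 3. The log2 difference was 0.09 ± 0.10 (SE, n = 3 each, limma adjusted p = 0.757), with a 95% interval of 0.913-fold to 1.24-fold. It was 0.17 without control replicate 3 and 0.046 without control replicate 2.

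The signals of Cyp4f5 and Cyp4f17 were near or under the array medians, where a MAS5 signal says little about the level. Cyp4f5 had 29.5, 30.5 and 26.6 in momfluorothrin livers, each over its array median, and 22.4, 22.7 and 29.3 in control livers, each under it. Control replicate 3 nevertheless lay above momfluorothrin replicate 3, and the measured log2 difference was 0.23 ± 0.25 (SE, limma adjusted p = 0.761). Cyp4f17 had 21.5, 16.1 and 23.7 in momfluorothrin livers and 9.92, 8.73 and 19.9 in control livers, and exceeded the median only on momfluorothrin replicate 3. Without a filter on low signals its log2 difference was 0.75 ± 0.43 (SE, limma adjusted p = 0.633 over 31042 probe sets, of which 0.0677% passed).

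**Figure D2:**
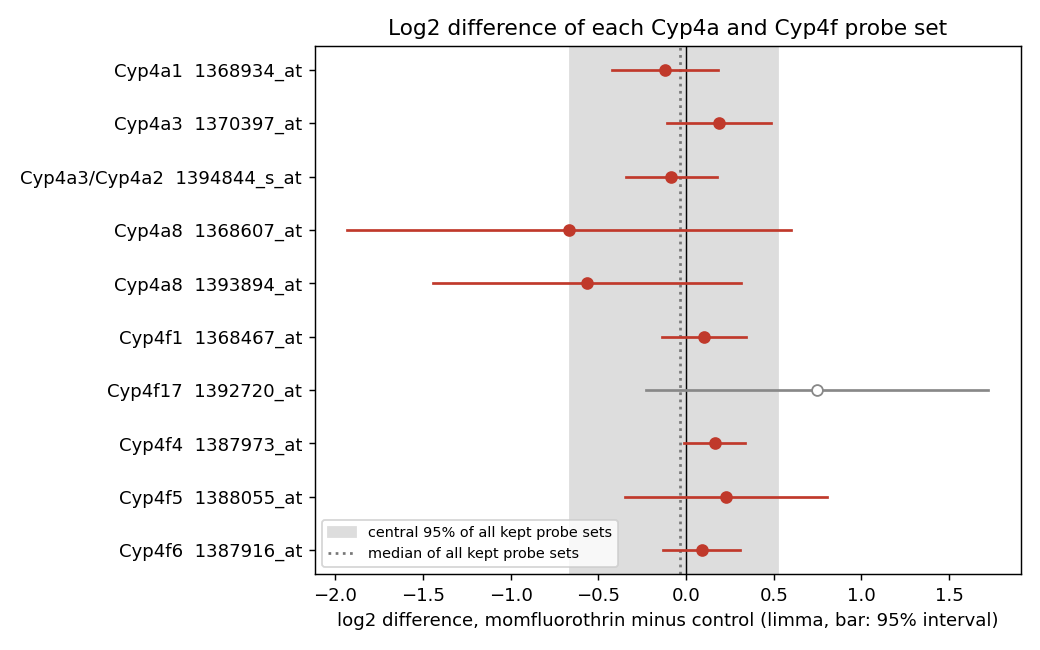
Log2 difference (momfluorothrin minus control) of each probe set with its 95% interval from limma, in red for the 9 kept probe sets and as an open grey point for Cyp4f17, which was tested only without a filter. Every interval includes 0, and those of the Cyp4a8 pair and of Cyp4f17 are the widest. The grey band holds the central 95% of all kept probe sets (-0.66 to 0.52).

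Median centring raised the log2 difference of every kept probe set by 0.17. Cyp4f4 then stood at 0.34 and Cyp4a3 at 0.36, with adjusted p of at least 0.254 in limma for all 9 members kept.

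The spread among the livers of a group also differed. For Cyp4a1 the SD of log2 signals was 0.02 in momfluorothrin livers and 0.30 in control livers. Only 1.44% of kept probe sets had a smaller SD among momfluorothrin livers, and 78.6% had a smaller one among control livers. Cyp4a3 had SDs of 0.03 and 0.30, and Cyp4f6 had 0.02 and 0.14. In all, 8 of the 9 kept probe sets had the smaller SD in momfluorothrin livers, Cyp4f4 being the exception (0.09 and 0.06). Over all kept probe sets the control SD was the larger in 51.3%, with median SDs of 0.17 in either group. With 3 arrays a group this is a description, and the difference in spread was not tested. The 9 are not separate observations, as all share the same arrays, Cyp4a8 enters by a pair and Cyp4a3 is named by more than 1. Cyp4f5 was kept only through its momfluorothrin arrays.

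The control livers did not deviate the same way in every member. Control replicate 3 had the lowest Cyp4a1 and Cyp4a3 signals of the 6 arrays and the highest Cyp4a8 signals, by either probe set, and the highest Cyp4f6 signal. Control replicate 2 had the highest Cyp4a3 and Cyp4a3/Cyp4a2 signals and the lowest Cyp4f1, Cyp4f6 and Cyp4f17 signals. Control replicate 1 had the highest Cyp4a1 signal. Cyp4a1 and Cyp4a3 are next to each other on chromosome 5, and their highest arrays were different control livers.

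**Figure D3:**
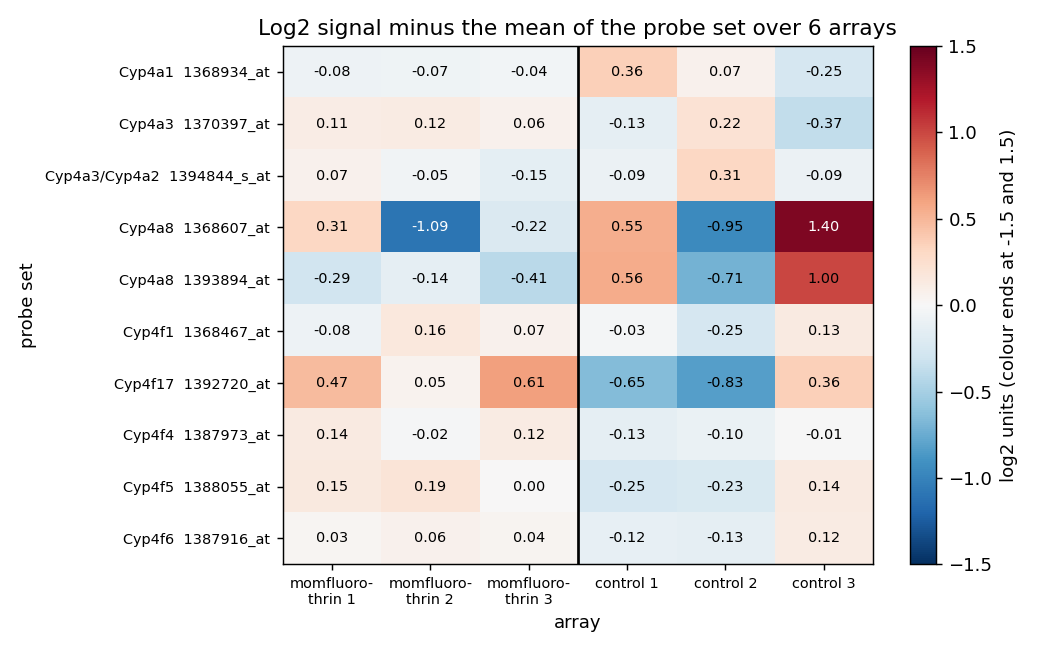
Log2 signal of each probe set minus its own mean over the 6 arrays, momfluorothrin arrays left of the line and control arrays right of it, with the value printed in each cell. The Cyp4a1 and Cyp4a3 rows are nearly flat over the momfluorothrin arrays, and the Cyp4a8 rows reach 1.40 and 1.00 in control replicate 3.

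The genes most like the most variable kept member of each subfamily were looked up by the root mean square difference of centred log2 signals over the 6 arrays. For Cyp4a8 (1368607_at, SD 0.95 over the 6 arrays) these were Usp18, Nt5c, Slfn4, Adora1 and Lpcat4, at 0.32 to 0.40, where the median gene was at 0.88. Usp18, a protease that removes the interferon-induced modifier Isg15, had 69.6, 30.7 and 45.0 in momfluorothrin livers and 55.2, 23.5 and 92.5 in control livers. As with Cyp4a8, its highest array was control replicate 3, and replicate 2 was the lowest within each group. For Cyp4f5 (SD 0.20) they were Rbpms, Aurkaip1, Ttc28, Cog1 and Glipr1, at 0.03 to 0.06, where the median gene was at 0.25. Cyp4f5 itself lay near or under the array medians, where its pattern over the arrays says little about its level. With 9200 genes and 6 arrays, close matches of this kind are a description only.

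Genes around the CYP4 step were read from lists of 104 genes, of which 83 were bright enough to be tested, each by its brightest kept probe set. Of these 83, only Ephx1 passed, against 0.217% of all 9200 genes, 0.196% higher and 0.0217% lower. Several genes stand in more than 1 list. At an unadjusted p under 0.05 in limma, 6.05% of all genes were higher and 6.18% lower, and the groups did not overlap in 18.3%. These shares belong beside the counts of each list below.

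Of 32 PPAR-alpha targets other than the Cyp4a genes, 28 were tested, and 0 were higher and 0 lower at the threshold. At an unadjusted p under 0.05 in limma, 3 were higher and 4 lower, where 6.05% and 6.18% of all genes were. The median log2 difference of the list was -0.02, beside -0.01 over all genes. Cd36, a fatty acid transporter, had the smallest p of the list, with 169, 226 and 221 in momfluorothrin livers and 82.6, 141 and 89.0 in control livers (log2 difference 1.01 ± 0.21 SE, limma adjusted p = 0.141). Cidec, a lipid droplet protein, stood at 0.46 ± 0.12 and Acsl1, which activates long-chain fatty acids, at -0.19 ± 0.07 (limma adjusted p = 0.227 and 0.365). The groups did not overlap in 4 of the 28 genes, these 3 among them, and in 18.3% of all genes. Cd36 passed under 2 of 15 alternatives, median centring and leaving out control replicate 2 (limma adjusted p of 0.0385 to 0.399 over the 15).

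The list of enzymes that take the hydroxylated fatty acid onward, from alcohol and aldehyde dehydrogenases to peroxisomal oxidation, had 18 of 26 genes tested. None passed, with 2 higher and 4 lower at an unadjusted p under 0.05 in limma, and the median was 0.01. Acsl5, an acyl-CoA synthetase, had 478, 611 and 507 in momfluorothrin livers against 948, 1111 and 673 in control livers (log2 difference -0.75 ± 0.18 SE, limma adjusted p = 0.182). Acot8, a peroxisomal thioesterase, had 161, 153 and 155 against 83.4, 125 and 76.9 (0.75 ± 0.18 SE, limma adjusted p = 0.186). Adh5, the glutathione-dependent formaldehyde dehydrogenase that also oxidises omega-hydroxy fatty acids, stood at 0.34 ± 0.09 (limma adjusted p = 0.218). The groups did not overlap in 5 of the 18 genes, these 3 among them, and in 18.3% of all genes. Acot8 passed under 1 of 15 alternatives, leaving out control replicate 2 (limma adjusted p of 0.0441 to 0.410 over the 15).

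Microsomal P450s receive their electrons from Por and cytochrome b5. The list of 7 genes holds this supply and also the membrane proteins Pgrmc1 and Pgrmc2. Of the 7, 6 were tested and none passed, with a median of 0.08. At an unadjusted p under 0.05 in limma 1 was higher and 1 lower, and the groups did not overlap in 3 of the 6. Cyb5r3, the cytochrome b5 reductase, was at 0.20 ± 0.07, Pgrmc2, a heme-binding membrane protein, at -0.25 ± 0.10, and Cyb5a, cytochrome b5, at 0.09 ± 0.06 on the scale of log2 differences (SE, limma adjusted p = 0.378, 0.387 and 0.617).

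Among 21 enzymes listed for arachidonic acid and leukotriene metabolism, 14 were tested, 1 rose and none fell (median 0.03). At an unadjusted p under 0.05 in limma, 3 were higher and 0 lower. The riser was Ephx1, the microsomal epoxide hydrolase, with 3374, 3998 and 3932 in momfluorothrin livers and 2036, 1844 and 1559.9 in control livers (log2 difference 1.06 ± 0.11 SE, limma adjusted p = 0.0109). Its call was lost without momfluorothrin replicate 2 or 3, without an intensity trend and with a replicate block (limma adjusted p of up to 0.144 over 15 alternatives). Cyp2j4, an arachidonic acid epoxygenase given here after its values were seen, stood just outside the threshold at 0.72 ± 0.11 (SE, limma adjusted p = 0.0530) and passed under 4 of 15 alternatives (0.0283 to 0.220 over the 15). Its signals were 1633, 2076 and 2002 in momfluorothrin livers and 1081, 1258 and 1120.2 in control livers. The groups did not overlap in 6 of the 14 genes, Ephx1 and Cyp2j4 among them.

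The other CYP4 enzymes measured, Cyp4b1 and Cyp4v3, had log2 differences of 0.16 ± 0.11 and 0.10 ± 0.19 (SE, limma adjusted p = 0.605 and 0.861). Both overlapped between the groups, as the Cyp4a and Cyp4f probe sets did.

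Of 21 receptors and coregulators that act with or beside PPAR-alpha, 18 were tested and none passed (median 0.04). At an unadjusted p under 0.05 in limma 1 was higher and 1 lower, and the groups did not overlap in 3 of the 18. Ppard, the PPAR-delta receptor, was at -0.45 ± 0.14, Nr1i3, the xenobiotic receptor CAR, at 0.32 ± 0.13, and Cebpa, a hepatocyte transcription factor, at 0.21 ± 0.10 in log2 difference (SE, limma adjusted p = 0.283, 0.421 and 0.443). Ppara, which encodes PPAR-alpha and is given here after its values were seen, had 45.5, 66.6 and 52.3 in momfluorothrin livers and 49.1, 67.5 and 32.9 in control livers. The momfluorothrin livers lay inside the range of the control livers (log2 difference 0.18 ± 0.27 SE, limma adjusted p = 0.831).

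**Figure D4:**
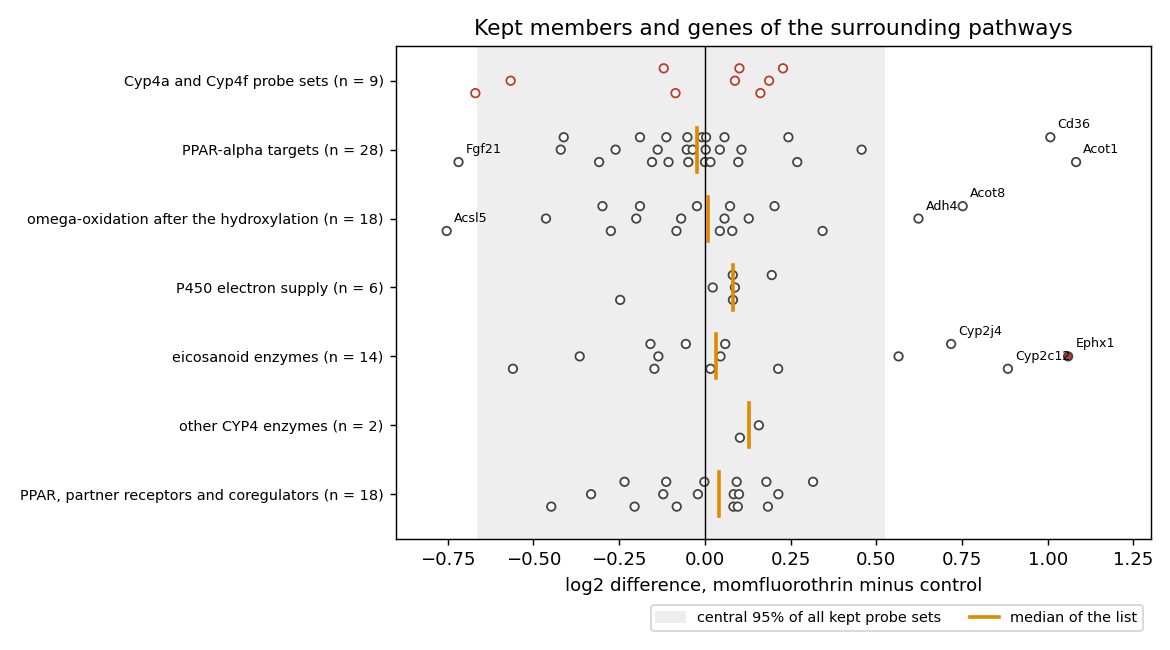
Log2 difference (momfluorothrin minus control) of the 9 kept Cyp4a and Cyp4f probe sets (red outlines) and of the tested genes of 6 pathway lists, 1 point each, with the median of each list in orange and the filled point past the limma threshold. The grey band holds the central 95% of all kept probe sets; genes beyond 0.6 in either direction are named, and Ephx1 is the only filled point.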

How the data were processed

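The deposited signals are intensities on a linear scale, 1 per probe set, which the authors computed with MAS5 according to the submitters' processing notes; the version and settings were not stated there. Log2 was taken directly, without a pseudocount or further scaling. Leaving out 57 Affymetrix controls gave 31042 of 31099 probe sets, and the filter kept the 15778 that lay above the median of their array on 3 or more of 6 arrays. Momfluorothrin was compared with control by limma 3.58.1 in R 4.3.3 (lmFit, eBayes with an intensity trend). P-values were adjusted by Benjamini-Hochberg over the kept probe sets, with a threshold of 0.05, and the code was tested on simulated data. Genes were named by the platform annotation from GEO, and each gene of a list was represented by its brightest kept probe set. The number of arrays limits the precision. The labels call the animals biological replicates, and no scan date or slide is given.

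Named were all member probe sets, the list genes past the threshold or else the 3 with the smallest p, and the 5 genes most like the most variable member of each subfamily. The members and lists were chosen with earlier results of these data known. Alternatives changed the filter, scaling, pseudocount (16), variance model, array weights, the replicate block and the rule for several probe sets, and left out each array in turn.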

Additional observations from a re-analysis of the deposited data

How the results depend on the processing

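Each setting tested 6 to 10 of the Cyp4a and Cyp4f probe sets, all 10 only without a filter, and none passed the threshold. This held under the 8 alternatives that keep all arrays and without any 1 of the 6 arrays. Of the 120 member log2 differences recomputed, 115 kept their sign and 5 turned it, none past the threshold. The 115 include settings that cannot change a log2 difference: the filters, eBayes without an intensity trend and the replicate block. Only the other settings could have turned a sign. Cyp4a1 was at 0.053 with median centring and ranged from -0.27 to 0.030 when single arrays were left out. The probe set of Cyp4a3 and Cyp4a2 was at 0.053 with quantile normalization and at 0.088 with median centring, and ranged from -0.15 to 0.046 when single arrays were left out. Of all kept probe sets 27 passed, 70 with median centring, 3 with eBayes without an intensity trend, and 5 to 27 when single arrays were left out, the lowest without momfluorothrin replicate 2 (5) and replicate 3 (7) and 15 without momfluorothrin replicate 1. Of the pathway genes 1 passed, 3 with median centring, 2 with a pseudocount of 16, 2 with the mean of all kept probe sets of a gene, 0 with eBayes without an intensity trend and 0 to 3 when single arrays were left out. The replicate block gave 15 probe sets, 0 pathway genes and 0 members. The numbers pair no samples by the labels, and the deviations of equally numbered arrays correlated across probe sets at -0.10, 0.10 and -0.06, so not every array correlated best with its own number. The cause of these shifts was not tested. Signals near the array median limit Cyp4a8, Cyp4f5 and Cyp4f17.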
